A study of Mus musculus with 30 samples.

Results

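Sleeping Beauty (SB) insertion sites were described in the livers numbered 1 to 12 of the SB group, which are 12 of the 30 livers of the series. The livers came from mice with a knockout of Fah, which serve as a model of type I tyrosinemia (TT1), and which had received an SB transposon vector in vivo as gene therapy. All 12 carry the same genotype and treatment, per the labels, and no untreated liver is part of the group, so values are set against the genome's own median and not against a control. Genomic DNA of whole livers was taken at the end of the monitoring period, fragmented, ligated to a linker and amplified from the transposon end before sequencing (streptavidin-based enrichment sequencing). Insertion and the later gain or loss of cells carrying a site cannot be told apart in such samples, and age, sex and length of monitoring are not given in the labels used here.

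Sleeping Beauty is a cut-and-paste DNA transposon of the Tc1/mariner family that was rebuilt from inactive copies in fish genomes. Its transposase recognises the repeats at the transposon ends and joins the element to a TA dinucleotide, which is duplicated at the insertion. In gene therapy the transposase and the transposon are supplied together, and the transposon carries the therapeutic gene into the chromosomes of the cell. Fah encodes the enzyme of the final step in the breakdown of tyrosine, and hepatocytes without it build up toxic intermediates.

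A site is a position of 2 bp with a strand, and its deposited whole number, of at least 3, is called its support here because what it counts is not given in the sources used. The liver tables held 944543 sites in all. The smallest table was that of liver 4 with 34929 sites, the median was 81238 and the largest was that of liver 11 with 120220. The 12 tables covered 925116 distinct positions, and the deposited merged table gave the same number of records at each of them. A single record stood at 906620 positions, 2 records at 17750 and 3 at 635, with at most 9. Only 17610 positions, 1.90% of the total, were found in more than 1 liver, so the landscape is almost entirely made of positions seen once. Autosomal density was 31.7 ± 9.23 sites per Mb (SD, n = 12), with 14.2 in liver 4 and 48.1 in liver 11.

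The X chromosome set the livers apart before any other measure. Its density relative to that of the autosomes was 0.335 to 0.385 in livers 1 to 6 and 0.571 to 0.639 in livers 7 to 12, with no overlap. Chromosome Y held 41 to 102 sites in livers 1 to 6 and 7 to 16 in livers 7 to 12. No label used here divides the livers in this way, and whatever else differed between them was not tested. All window values below are therefore taken over autosomes, as the share of a liver's autosomal sites per 10000. The sex chromosomes thus do not enter, and livers of unlike depth stand on a common scale. Shares do not remove counting error, which is larger in livers with fewer sites.

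SB sites covered the autosomes broadly, with a moderate spread of density. All 2393 windows of 1 Mb held at least 1 site in the 12 livers together. The median window held 3.97 of every 10000 autosomal sites, the 10th percentile 1.83 and the 90th 6.79, a ratio of 3.71. Of the windows, 2.55% lay above 2 times the median and 13.3% below 1/2 of it. Windows were tested over the 12 livers against each liver's own median window with limma's voom and treat, which asks for a difference beyond 1.5-fold (Benjamini-Hochberg adjusted p under 0.05). A window entered the test when the livers averaged 1 site or more in it. Of 2392 such windows, 268 were above the median (11.2%) and 454 below it (19%). The labels give the livers as separate samples, and the p-values measure the spread between them. Extra variation between livers beyond counting was small, with a coefficient of variation (CV) of 5.73% per 1 Mb window.

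**Figure D1:**
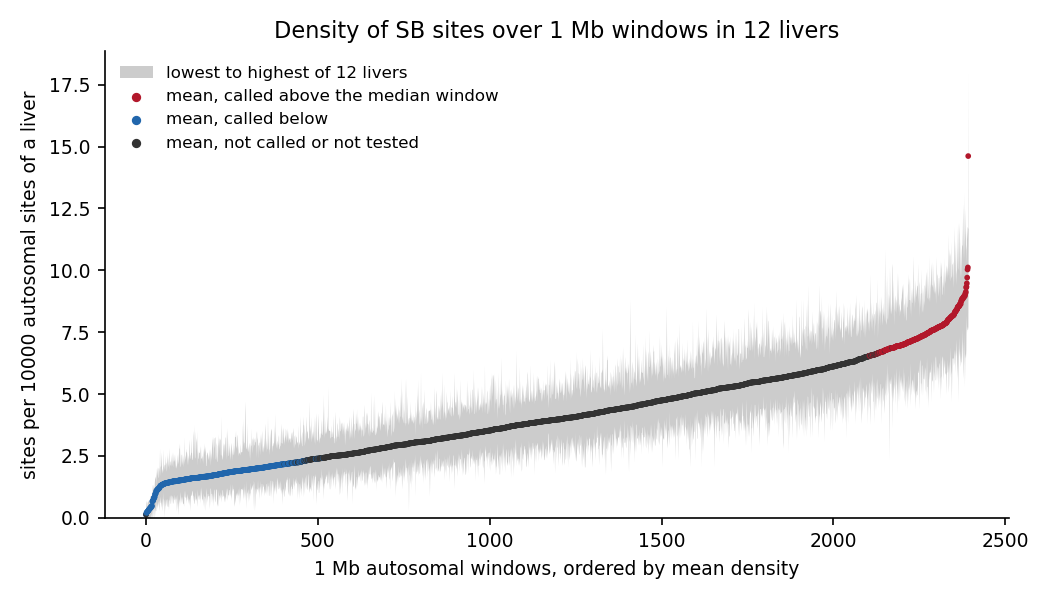
Each point is 1 of 2393 autosomal windows of 1 Mb, ordered along the x axis by its mean density over 12 livers, and the y axis gives sites per 10000 autosomal sites of a liver. Grey spans the lowest to the highest liver, and the curve runs from 0.128 through a median of 3.97 to a single window at 14.6.

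No annotation of GRCm39, the build of the sites, was used here. Genes named below are those that general knowledge of the mouse map puts in a neighbourhood, with their order looked up in a RefSeq gene table of GRCm38.p6. They are background, chosen after the values of the windows were seen and not placed by coordinates, and no class of genes was tested. For the same reason the planned lists of liver-secreted proteins, regulators, large genes of nerve cells and olfactory receptors were not placed.

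The densest window of the genome was chr11:3000001-4000000, the neighbourhood of Sfi1, which encodes a centrosomal protein, and of the kinase gene Limk2. Its share was 12 per 10000 in the lowest liver, 14.3 in the median liver and 18.0 in the highest, a mean of 14.6 ± 1.75 (SD, n = 12). This is 3.65-fold the median window (log2 1.87, SE 0.05, adjusted p = 1.1e-38 by limma), and it was the densest window in 10 of the 12 livers. The lowest liver in this window lay above the highest value reached on average by any other window, 10.1.

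The excess lay in the first 200 kb of that window. The stretch chr11:3100001-3200000 held 624 sites, 46.6% of the window, and its share was 4.98 in the lowest liver, 6.85 in the median liver and 9.11 in the highest. With 15.9-fold the median of the tested 100 kb windows (adjusted p = 6.3e-84 by limma) it was the densest 100 kb window in 12 of 12 livers. Its neighbour chr11:3000001-3100000 held 235 sites, at 5.86-fold the median. The other 8 windows of 100 kb averaged 0.635 ± 0.114, against 0.358 for the median window of the genome.

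Repeated positions were common there. In chr11:3100001-3200000 the 624 sites stood at 447 positions, of which 111 were found in more than 1 liver, and in the neighbouring window 41 of 156 positions were. Only 68.0% of the sites of the 1 Mb window stood at positions seen in 1 liver, against 92.3% to 96.6% in the other 9 densest windows. With the repeated positions left out, the log2 excess of the 1 Mb window was 1.36 in place of 1.87, against 1.30 for the next densest window treated in the same way. Whether the number of copies of this stretch in the genome, or the placement of reads in it, bears on its density was not tested.

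The other 9 densest windows lay close together, between 9.03 and 10.1 per 10000 on average. Each was in the densest 10% of windows in at least 11 of 12 livers, and their fold over the median ran from 2.23 to 2.53 with adjusted p of at most 3.9e-13 (limma). The window chr19:29000001-30000000, the neighbourhood of Jak2, a cytokine receptor kinase, and of Cd274, the gene of the immune ligand PD-L1, had 7.74 in the lowest liver, 10.4 in the median liver and 11.7 in the highest. The window chr18:35000001-36000000, the neighbourhood of Ctnna1 (alpha-catenin) and Matr3 (a nuclear matrix protein), ranged from 7.61 through 10.2 to 11.8. The window chr3:118000001-119000000, the neighbourhood of the very large gene Dpyd, whose product starts pyrimidine breakdown in the liver, ranged from 7.61 through 9.74 to 11.8. The liver ranges of these windows overlapped one another almost entirely, so their order among themselves is not resolved.

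A pair of further windows lay on chromosome 11. The window chr11:77000001-78000000, the neighbourhood of the kinase gene Taok1 and the phosphatase gene Ssh2, ranged from 7.76 through 9.59 to 11.3. The window chr11:86000001-87000000, the neighbourhood of Med13, Cltc (clathrin heavy chain) and Vmp1, ranged from 7.49 through 9.09 to 11.6. Together with the window from 3 Mb, chromosome 11 thus supplied 3 of the 10 densest windows.

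The window chr1:160000001-161000000, the neighbourhood of Rabgap1l, ranged from 8.21 through 9.29 to 10.3 and had the smallest spread of the 10, 9.31 ± 0.733 (SD, n = 12). The window chr12:78000001-79000000, the neighbourhood of Gphn, whose product gephyrin also acts in molybdenum cofactor synthesis, ranged from 6.77 through 9.27 to 11. The window chr4:132000001-133000000, the neighbourhood of Ythdf2, a reader of methylated RNA, and of Eya3, ranged from 6.47 through 9.16 to 10.8.

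The tenth, chr5:87000001-88000000, is the neighbourhood of the Ugt2b cluster of glucuronosyltransferases, liver enzymes that make steroids and drugs soluble. It ranged from 6.64 through 8.66 to 12.5 and had the largest spread of the 10, 9.03 ± 1.79. Livers 1 to 6 had 8.23 to 12.5 there and livers 7 to 12 had 6.64 to 9.75. This window was the only one of the 10 that no longer passed when the test asked for more than 2-fold (adjusted p = 0.092, limma).

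**Figure D2:**
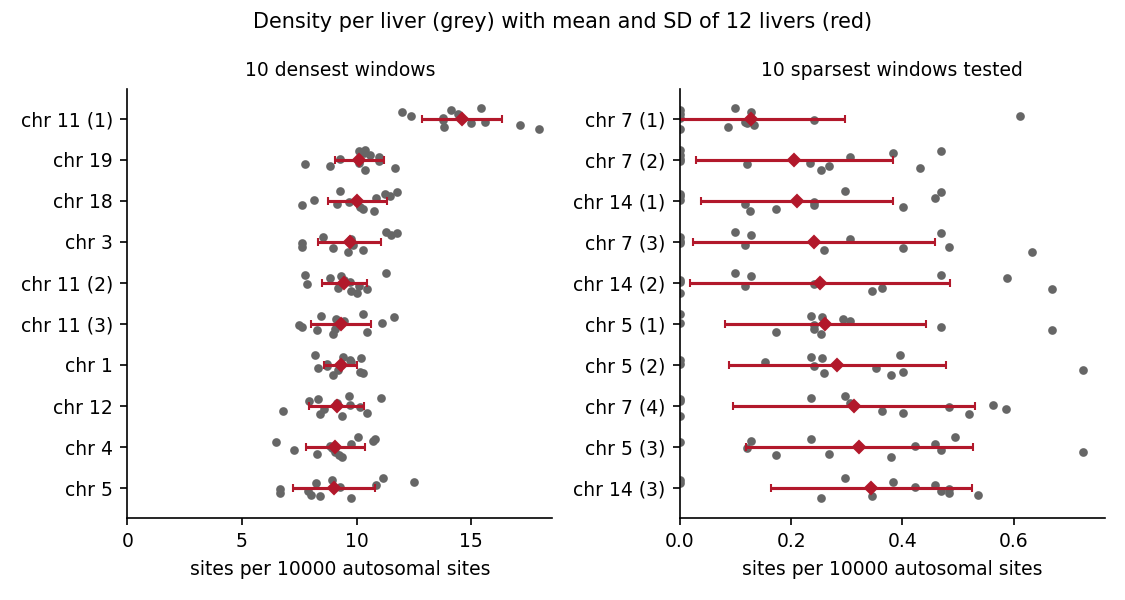
Sites per 10000 autosomal sites (x axis, starting at 0) are shown per liver (grey points) with the mean and SD of 12 livers (red) for the 10 densest windows of 1 Mb (left) and the 10 sparsest windows tested (right), ordered by mean and numbered where a chromosome recurs. The first window of chromosome 11 reaches 18.0 while no liver exceeds 0.725 in any of the 10 sparsest.

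At 100 kb, 24024 windows were counted and 22425 averaged 1 site or more per liver and were tested. Of these, 1248 were above each liver's median over the tested windows (5.57%) and 47 below it (0.21%). Folds at 100 kb are also against that median. The median over all 24024 windows, 0.358 per 10000, includes the sparse windows that the filter left out and is not that reference. The count above depended on the test and the depth, being 376 with limma-trend, 773 without positions found in more than 1 liver and 5 with every liver thinned to the smallest. The filter on low windows removes the sparse windows themselves, and the count below the median rose to 1615 without it, so that count says little about how much of the genome is sparse. It also depended on single livers, being 2 without liver 1, 92 without liver 2 and 7 to 31 without liver 3, 5, 6, 8, 10, 11 or 12. Variation between livers beyond counting was 12.4% per 100 kb window.

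After the windows of chromosome 11, the densest 100 kb windows held 144 to 159 sites. The window chr1:88100001-88200000, the neighbourhood of the Ugt1a cluster, whose enzymes conjugate bilirubin, ranged from 0.705 through 1.81 to 2.78 per 10000 and stood at 4.08-fold the median. The window chr7:114000001-114100000 ranged from 1.04 through 1.67 to 2.14, at 3.71-fold. The window chr11:62300001-62400000, the neighbourhood of the nuclear receptor corepressor gene Ncor1, ranged from 0.882 through 1.37 to 3.36, at 3.72-fold. These were above the median in every liver, and their ranges overlapped.

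The called 100 kb windows formed 884 runs of neighbours, of which 649 were a single window. The longest run was chr19:36500001-37400000, the neighbourhood of Tnks2, Ide (insulin-degrading enzyme) and Cpeb3. It had 9 windows and 867 sites, with a mean of 1.03 ± 0.160 per window (SD, n = 12). The run chr15:61800001-62600000, the neighbourhood of Myc and the noncoding gene Pvt1, had 8 windows, 824 sites and a mean of 1.12 ± 0.175. Runs of 6 windows lay at chr1:160300001-160900000, chr4:131900001-132500000 and chr5:107800001-108400000, the last being the neighbourhood of Mtf2, with 570, 586 and 524 sites. The first of these 3 lies in the window of Rabgap1l and the second overlaps that of Ythdf2.

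Among 1 Mb windows, the longest run above the median had 9 windows, chr12:77000001-86000000, with 7.57 ± 0.450 per window. This stretch is the neighbourhood of Gphn, Rad51b and Slc10a1, the bile acid importer of hepatocytes. The run chr19:36000001-42000000 had 6 windows and 8.08 ± 0.617, and general knowledge puts the Cyp2c cluster of liver cytochromes in this stretch.

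The sparse side of the landscape included stretches known for clusters of duplicated genes. How reads of repeated sequence were treated is not given in the sources used here. Whether low counts in the sparse windows reflect few insertions or reads that could not be placed was not tested. The lowest of the tested windows was chr7:21000001-22000000, with 12 sites in the 12 livers together, 0 to 0.611 per 10000 and a mean of 0.128 ± 0.169. With its neighbours chr7:20000001-21000000 (22 sites) and chr7:22000001-23000000 (19 sites) it forms a stretch known for the V1R vomeronasal receptor genes (Vmn1r), which detect pheromones in the nose. The GRCm38.p6 table lists 126 Vmn1r genes on chromosome 7, of which 70 follow one another without another gene between them. The window chr7:8000001-9000000, with 31 sites, is the neighbourhood of the second receptor family, Vmn2r.

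Chromosome 5 held 3 of the 10 sparsest windows. The windows chr5:94000001-95000000 and chr5:95000001-96000000, with 31 and 28 sites, are the neighbourhood of the Pramel genes, which are expressed in germ cells and early embryos. The window chr5:11000001-12000000, with 23 sites, is the neighbourhood of Speer genes, a rodent family of the testis. Chromosome 14 held the remaining 3, from 16 to 19 Mb, with 34, 21 and 19 sites.

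Every one of the 10 windows was below its liver's median and in the sparsest 10% in 12 of 12 livers. Their fitted log2 differences from the median window ran from -4.62 to -3.31, with adjusted p of at most 6.9e-15 (limma). The numbers behind them are small, 12 to 34 sites in all, and 1 to 4 livers had no site in a given window, so their order among themselves is not resolved. The window chr2:175000001-176000000, in a stretch known for KRAB zinc finger genes, had 10 sites and was not tested. All 10 were on the minus strand, and 7 livers had none.

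Several broad regions of at least 6 Mb were low throughout, in windows that each held sites. The longest run of 1 Mb windows below the median was chr1:108000001-118000000, the neighbourhood of the cadherin genes Cdh7 and Cdh19 and of Cntnap5a, with 10 windows and 1.57 ± 0.194 per window. The run chr5:10000001-17000000, which includes the semaphorin genes Sema3a, Sema3d and Sema3e, had 7 windows at 1.51 ± 0.236, among them the sparse window from 11 Mb and a stretch of 532 kb without a site. The run chr5:55000001-62000000 around the protocadherin gene Pcdh7 had 1.74 ± 0.261, and chr14:107000001-114000000 around Slitrk1, Slitrk5 and Slitrk6 had 1.62 ± 0.305. The run chr2:95000001-101000000 around Lrrc4c, a synaptic adhesion gene, had 6 windows at 1.64 ± 0.328. In the highest liver of each run the density was at most 2.31, below the median window's 3.97.

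Of the 100 kb windows, 102 held no site in any of the 12 livers, which is 0.425% of them. Chromosomes 7 and 14 held 23 each, chromosome 4 held 16 and chromosome 2 held 11. The longest stretch without a site was chr4:41856816-42708915, 852 kb in the neighbourhood of the duplicated chemokine genes Ccl21 and Ccl27 and of Il11ra2. It was followed by chr14:18642055-19224372 (582 kb), chr14:16632749-17192190 (559 kb), chr2:175044545-175585873 (541 kb) and chr5:15103477-15635056 (532 kb). Stretches of at least 100 kb numbered 83 and summed to 18.4 Mb of the 2402 Mb of autosome spanned by sites, and 60 of them lay on chromosomes 2, 4, 5, 7 and 14. Whether the stretches without a site lack insertions or lack reads that could be placed was not tested.

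Chromosomes 19 and 11 stood above the others, and most of the rest lay close together. Chromosome 19 had 1.40 ± 0.049 times the mean autosomal density, with 1.33 in the lowest liver and 1.48 in the highest. Chromosome 11 followed with 1.23 ± 0.030, between 1.16 and 1.27, so the ranges of the pair did not overlap. Chromosome 9 stood at 1.06 ± 0.019, and its lowest liver was at 1.03. The next 10 chromosomes, from chromosome 5 at 1.03 to chromosome 2 at 0.995, overlapped with their neighbours. Chromosomes 12, 8, 1, 3 and 7 followed with 0.949 to 0.905. Chromosome 14 was lowest, at 0.866 ± 0.014, and its highest liver reached 0.895 while the lowest of chromosome 7 was at 0.881.

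Window calls also differed between chromosomes, not always in the order of density. On chromosome 19, 31% of the tested windows were above the median and 1.72% below, and on chromosome 11 the values were 27.1% and 11%. On chromosome 14, 5.74% were above and 29.5% below, and chromosome 10 had few of either, 4.72% and 10.2%. The first and last Mb of autosomes averaged 1.29 ± 0.045 and 1.29 ± 0.041 times the mean density, against 0.844 ± 0.037 in the fourth Mb from the start. The first Mb includes the dense start of chromosome 11, at 3.56, and without that chromosome it averaged 1.17 ± 0.046 and the last Mb 1.26 ± 0.045, an alternative chosen after seeing the data. Both ends varied by chromosome: at each, 13 of 19 autosomes were above the mean density and 6 below it, with a low of 0.579 at the start of chromosome 9 and of 0.475 at the end of chromosome 3.

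The livers agreed in this landscape about as far as their numbers of sites allow. Over 1 Mb windows, Pearson's r between livers ran from 0.735 for livers 2 and 4, the smallest tables, to 0.913 for livers 1 and 11, the largest, with a median of 0.852 over 66 pairs. Counting error alone would lower a perfect agreement to 0.861 for the median pair, and the ratio of r to this limit was 0.966 to 1.00. Over 100 kb windows r was 0.309 to 0.627 with a median of 0.492, and the ratio to the limit fell to between 0.855 and 0.979. Windows are not independent, and these correlations are descriptions with no test.

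The division seen on the X chromosome was hardly visible in how well livers agreed over autosomal windows. The limit is set by each liver's own concentration of sites, so this ratio does not register differences in concentration, which are given below. Over 1 Mb windows the median ratio of r to its limit was 0.992 for pairs among livers 1 to 6, 0.992 among livers 7 to 12 and 0.989 for pairs across. Over 100 kb windows the corresponding values were 0.926, 0.955 and 0.942, so pairs across lay between the others.

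**Figure D3:**
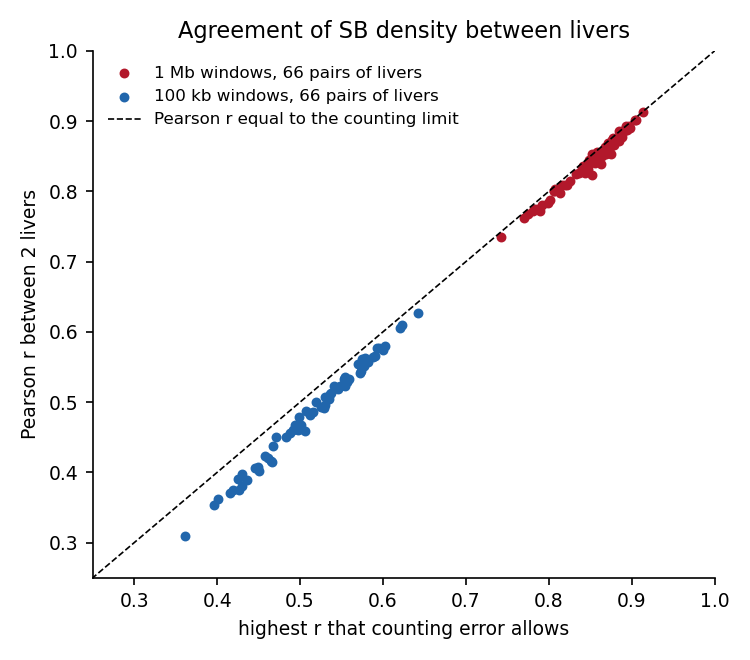
Pearson's r of site counts between 2 livers (y axis) is plotted against the highest r that counting error allows (x axis), for 66 pairs over windows of 1 Mb (red) and of 100 kb (blue). Points lie on or just under the dashed line of equality at 1 Mb, and further under it at 100 kb.

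The ranking of windows carried over from liver to liver. When windows of 1 Mb were ranked by the sites of the other 11 livers, the densest 10% held 18.2% ± 0.972 of a liver's sites, and the sparsest 10% held 3.56% ± 0.431. A liver's own densest 10% of 1 Mb windows overlapped with that ranking by 65.7% ± 6.51, and by 42.4% ± 5.37 at 100 kb. Density was also similar between neighbours along a chromosome. The mean share correlated at 0.525 between adjacent 1 Mb windows, at 0.310 for windows 2 Mb apart and at 0.101 for windows 5 Mb apart.

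How strongly sites were concentrated did differ from liver to liver. The extra-Poisson CV over 1 Mb windows, which removes the part that counting gives, was 0.379 in liver 9, 0.455 in the median liver and 0.515 in liver 3, with a mean of 0.452 ± 0.043. At 100 kb the same livers were lowest and highest, at 0.503 and 0.681, with a mean of 0.601 ± 0.055. Livers 1 to 6 ranged from 0.598 to 0.681 at 100 kb and livers 7 to 12 from 0.503 to 0.627, with some overlap. Whether concentration follows the division seen on the X chromosome was not tested. In liver 3 the densest 10% of windows held 19.7% of the sites and the sparsest 10% held 2.93%, and in liver 9 the values were 16.5% and 4.25%. The CV was not related to the number of sites (Pearson's r = 0.200, permutation p = 0.532, Spearman's rho = -0.035, permutation p = 0.921, n = 12; adjusted p = 0.685 and 0.921 over the 3 relations computed). Leaving out livers 4 and 11, the extremes in site number, gave r = -0.017.

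Sites lay slightly more often on the minus strand. The minus share was 50.5% in the lowest liver, 51.3% in the median liver and 51.9% in the highest, a mean of 51.1% ± 0.447 (SD, n = 12). It was above an even split in 12 of 12 livers, by 1.13 percentage points on average (exact two-sided sign-flip permutation test, p = 0.000488, the smallest that 12 livers can give). Among sites with a support of at least 10 the excess was 0.69 points. On autosomes alone the excess was 1.09 points, and 19 autosomes and the X each had a mean above 50%.

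No single region was called for its strand balance. None of the 2392 tested 1 Mb windows differed from its liver's own strand balance (limma, adjusted p under 0.05, 0% called), while 141 had an unadjusted p under 0.05 (5.89%). Leaving out liver 4 gave 2 such windows and leaving out liver 7 gave 1. Over windows with at least 100 sites, the SD of the minus share was 3.09 percentage points, where counting alone gives 2.86. In the same test on simulated counts, 127 of 200 skewed windows were recovered, all of them given skews several times the observed SD. Weaker skews were not simulated, so the lack of calls does not say whether weaker skews were present. A position with a site on each strand in the same liver was rare, with 20 to 160 such positions per liver.

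The strand excess changed with support. Sites with a support of 3 to 9, which made up 8.37% of all, were 56.3% ± 3.21 minus (50.1% to 62.5%, above 50% in 12 of 12 livers). Those from 10 to 29 were 49.4% ± 1.14 minus and those from 30 to 59 were 50.2% ± 0.819, above 50% in 2 and in 6 livers. The share then rose again, to 51.6% ± 1.47 from 60 to 99 and to 52.7% ± 2.90 at 100 or more, above 50% in 12 of 12 livers in both classes. The mean share was thus nearest 50% at middling support and higher at both ends. These classes hold unlike parts of each liver, since support differed between livers. The class of 100 or more held 0.307% to 39.3% of a liver's sites. The lowest part was that of liver 11, whose 99th percentile of support was 86, so its minus share in this class rests on few sites. Its minus share was 50.1% in liver 10, the lowest, and 59.9% and 56.1% in livers 11 and 9, the highest.

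Neighbouring sites lay closer than even scatter would place them. The median distance between neighbouring positions was 11103 bp in liver 11, 16716 bp in the median liver and 40121 bp in liver 4. This was 0.790 ± 0.036 of the median that the same number of sites scattered evenly would give (0.733 to 0.846, below 1 in every liver). Of neighbours, 1.89% ± 0.408 lay within 10 bp, against 0.0316% for even scatter. Within 100 bp the shares were 2.47% ± 0.288 and 0.316% (1.02% in place of 2.47% among sites with a support of at least 10, and 1.40% with livers thinned to the smallest), and within 1000 bp 6.45% ± 0.986 and 3.11%.

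The closest pairs belonged to single livers. For each distance, pairs of sites in the same liver were set against pairs formed with the other livers, which hold the preference for a region but not what happened in 1 liver. From 1 to 10 bp, pairs within a liver were 5.02 to 44.6 times as frequent, with a median of 11.1. From 11 to 100 bp the ratio was 1.10 ± 0.103 and above 1 in 10 of 12 livers. From 101 to 1000 bp it was 1.01 ± 0.028, and at larger distances up to 100000 bp it was 1.00. Beyond 100 bp the ratio stayed between 0.956 and 1.07 in every liver and distance class. The highest ratios at 1 to 10 bp, 44.6 and 27.7, belonged to livers 4 and 2, which have the fewest sites, and the lowest, 5.02 and 6.53, to livers 11 and 1, which have the most.

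The pairs within 10 bp were mostly on the same strand. There were 21869 same-strand pairs and 1022 opposite-strand pairs from 1 to 10 bp. Within 100 bp the same-strand pairs outnumbered the opposite-strand pairs 6.99-fold over livers (log2 2.81 ± 0.809, SD; exact two-sided sign-flip permutation test, p = 0.000488, above 1 in 12 of 12 livers). Among sites with a support of at least 10 the log2 ratio was 1.11 (exact permutation p = 0.000488). The ratio of all sites was 1.11 ± 0.128 from 11 to 100 bp and 1.03 ± 0.050 from 101 to 1000 bp (exact permutation p = 0.0073 and 0.047, adjusted 0.018 and 0.078 over 5 distance classes). From 1001 bp on it was 1.00, with adjusted p of 0.986 and 0.432 in the exact test.

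Their distances were even numbers of bases. Pairs within a liver numbered 685 at 1 bp, 12160 at 2 bp, 151 at 3 bp, 7311 at 4 bp, 60 at 5 bp and 1590 at 6 bp. Between livers the same distances gave 80, 5585, 301, 7978, 426 and 2570 pairs. Many more pairs can be formed between livers, with 37148799 against 3689294 within livers at 10001 to 100000 bp. Of all pairs 2 to 40 bp apart, 95% within livers and 78.2% between livers were at even distances. The preference for even distances was thus shared by pairs from different livers. Relative to the pairs that can be formed, pairs within a liver were in excess at each distance from 1 to 6 bp, least so at 5 bp. The sequence at the sites was not read.

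**Figure D4:**
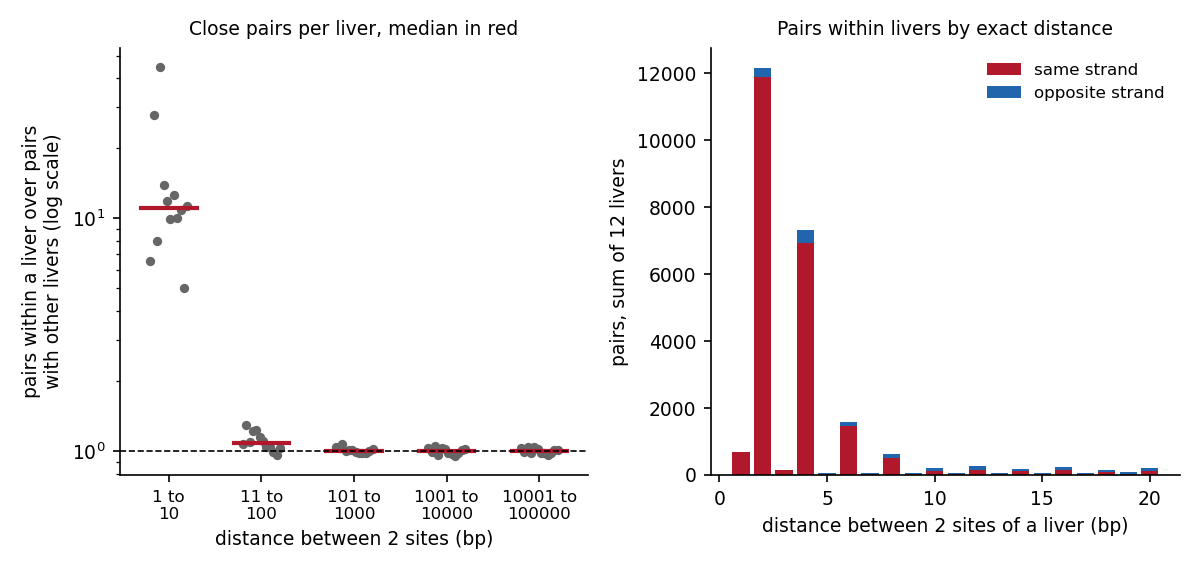
Left, the ratio of pairs within a liver to pairs with other livers (log y axis) is plotted per liver (grey) with the median (red) for 5 classes of distance, and the dashed line marks 1. Right, the number of pairs within livers is plotted by exact distance from 1 to 20 bp and strand, with peaks of 12160 at 2 bp and 7311 at 4 bp made almost wholly of same-strand pairs.

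In these close pairs 1 member had little support. Of 16343 neighbours within 10 bp, 15518 were on the same strand. The weaker member had a median support of 5 (mean over livers 5.17 ± 0.389) and the better one 32 (32.3 ± 4.56), against 52.6 ± 14.1 for all sites in a mean liver. Where the pair was on opposite strands the weaker member had 34.3 ± 10.5. Sites with a better supported site on the same strand within 10 bp numbered 15915, or 1.79% ± 0.443 of a liver's sites, and 58.4% ± 2.69 of them were minus. They made up 17.6% ± 5.19 of the sites with a support of 3 to 9 and 0.147% ± 0.075 of those from 30 to 59. Without them, the minus share of sites with a support of 3 to 9 was 55.9% ± 4.17, above 50% in 11 of 12 livers, close to the 56.3% given with them.

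Support was not held by a few sites. The support of the median site was 34 in liver 11, 48.5 in the median liver and 85 in liver 4. The best supported 10% of sites held 21.9% ± 1.31 of a liver's support (20.3% to 25%), and the 99th percentile of support was 2.85 ± 0.326 times the median. The highest support of any site was 212 to 580 in a liver, while the sum over its sites was 2887163 to 5239572. At the floor of 3 stood 2.15% ± 0.415 of sites, and how many sites fell below it is not known.

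Livers with more sites had less support per site. These measures are tied to each other, since a liver's summed support is spread over its sites. The sum ranged from 2887163 in liver 2 to 5239572 in liver 8, and the sites from 34929 to 120220. Whether the relation goes beyond this tie was not tested. Over the 12 livers the number of sites and the median support had Pearson's r = -0.834 (permutation p = 0.00043, adjusted 0.0013 over 3 relations) and Spearman's rho = -0.664 (permutation p = 0.022, adjusted 0.066). Without livers 4 and 11, the smallest and the largest, r was -0.607 (permutation p = 0.051), so the relation rests partly on them. The number of sites showed no such relation to the minus share (r = -0.130, permutation p = 0.685, adjusted 0.685; rho = 0.063, permutation p = 0.851, adjusted 0.921; r = -0.293 without livers 4 and 11).

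**Figure D5:**
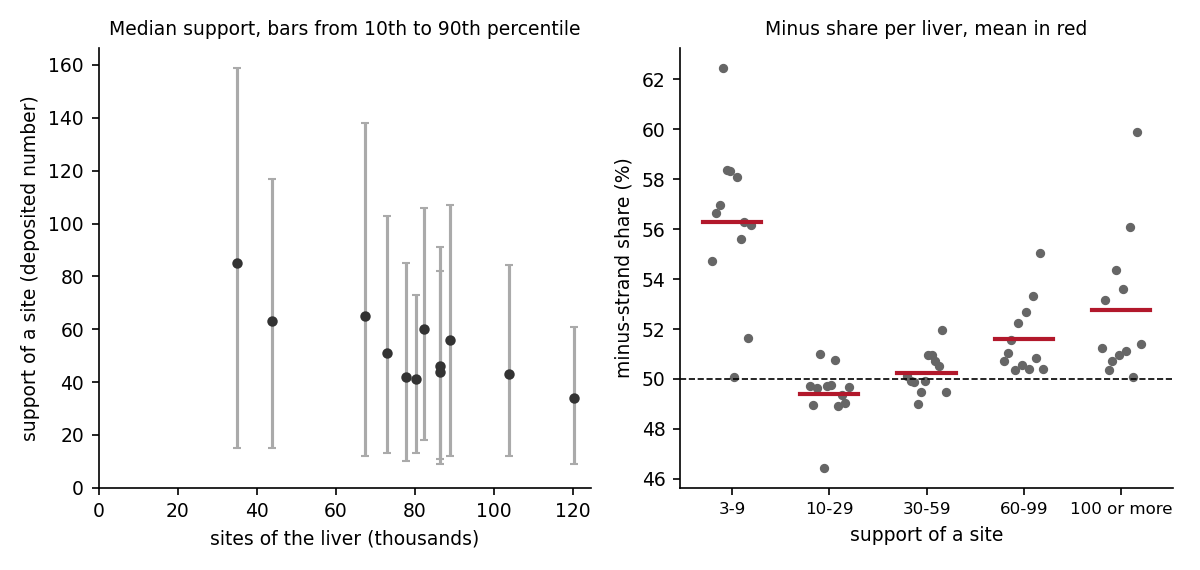
Left, the median support of a site (y axis, points, with bars from the 10th to the 90th percentile) is plotted against the number of sites of each of 12 livers, falling from 85 in liver 4 to 34 in liver 11. Right, the minus-strand share per liver (grey) with the mean (red) is plotted by class of support, at 56.3% for the lowest class, near the dashed line of 50% in the middle classes and at 52.7% for the highest.

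Sites in dense regions had slightly more support. The median support was taken in the windows of 1 Mb that were densest or sparsest in the other 11 livers. In the densest 10% it was 52.8 ± 14 and in the sparsest 10% it was 50.0 ± 13.5. The ratio was 1.06 (log2 0.08 ± 0.040, SD), above 1 in 12 of 12 livers (exact two-sided sign-flip permutation test, p = 0.000488). The smallest ratio was that of liver 2, with 62 in dense and 61 in sparse windows, and the largest that of liver 10, with 42 and 38. With the mean of log2 support in place of the median, the log2 difference was 0.18 (exact permutation p = 0.000488). Between strands the medians were 52.6 ± 13.8 for minus and 52.3 ± 14.3 for plus sites (log2 0.013 ± 0.043, exact two-sided sign-flip permutation test, p = 0.297, higher for minus in 5 livers and lower in 3). That direction turned to a lower support of minus sites, by 0.034 on the log2 scale, when the mean of log2 support replaced the median (exact permutation p = 0.045).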

How the data were processed

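Sites were read from the tables of the 12 SB livers numbered 1 to 12 and from the merged table of the same livers. Per the submitters' processing notes, cutadapt, BWA and GRCm39 were used by the authors, without versions, and how reads of repeated sequence were treated is not given in the sources used here. The deposited number of each site, called support, has no stated unit. Whether it counts reads or separate molecules is not given, so support is not taken here as a measure of cell number. In the merged table the deposited count is how many records, by liver and strand, share a position, which was checked against the liver tables.

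Autosomes were divided into windows of 1 Mb and 100 kb from the first to the last site of each autosome, leaving out the last, partial window. Site counts per window went into limma 3.58.1 under R 4.3.3 (voom, intercept only, treat at 1.5-fold, Benjamini-Hochberg adjustment). Depth is the number of sites per liver, 34929 to 120220. edgeR 4.0.16, an alternative, refuses a fit of the mean alone, so its quasi-likelihood F statistic was formed from the difference in deviance. Per-liver values were tested by exact sign flips in scipy 1.17.1 (Python 3.11.15, with pandas 2.3.3 and numpy 2.4.6), and relations by 100000 permutations. Figures were drawn with matplotlib 3.10.9.

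The windows named are the 10 densest and 10 sparsest of 1 Mb, the 5 densest of 100 kb, the 5 longest runs and the 5 longest stretches without a site. Strand windows were to be named only if called, and none was. The members, lists and rules were chosen with earlier results of these data known. The classes of distance and support, the pairs between livers, the chromosome ends, the exact distances, the 3 relations, the runs of 1 Mb windows and the 100 bp limit of the strand test were chosen after the data were examined. On simulated counts of 2393 windows of 1 Mb, 50 of 50 windows raised 2-fold and 44 of 50 lowered 2-fold were called, as were all 50 raised and all 50 lowered 3-fold, and 0 of 2193 unchanged ones. The unchanged windows were set exactly at the median, so they do not measure error near 1.5-fold. The simulated variation between livers was a fixed value and not the one estimated from the data. Of 2193 unskewed windows, 6 were called by the strand test. Alternatives changed the minimum of support (10), repeated positions, sites within 10 bp, depth, test, centring, fold, filter, window start and livers. Sequences at sites were not read, since no genome of the build was used. The SB liver numbered 13 and the 17 piggyBac livers were not analysed here.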

Additional observations from a re-analysis of the deposited data

Results flagged for a closer look

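Mitochondrial DNA lies outside the comparisons above. The 12 livers listed 14 mitochondrial sites, in 7 livers, with at most 3 in a liver and a support of 11 to 94 (median 45). They stand here because they are a signal in data the windows do not use. No control liver was part of these 12, and their origin was not tested.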

How the results depend on the processing

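Across alternatives the 20 named 1 Mb windows kept their direction and side of the threshold in 406 refits and lost the call in 1, that of chr5:87000001-88000000 at 2-fold. Sparse windows that fell under the filter were not refitted, so chr7:21000001-22000000 had 16 alternatives where each of the densest windows had 21. After thinning, most of the sparsest windows were no longer tested. Shifted windows were not applied to the named windows. Counts of calls moved more. With edgeR, which tests against no change and then asks for a fitted fold of 1.5, 434 windows of 1 Mb were above; with treat, 9 were above and 112 below at 2-fold; centring on the mean gave 225 above and 490 below. At 100 kb, windows above and below numbered 376 and 0 with limma-trend, 5520 and 5640 with edgeR, 74 and 0 at 2-fold, 1913 and 1615 without the filter, and 5 and 0 with livers thinned to 34929 sites, where fewer windows were tested. Windows above numbered 773 without repeated positions. Windows below numbered 125 with mean centring, 5 with a support of at least 10, 21 without repeated positions and 117 with shifted windows. The cause was not tested for the others. Leaving out each liver gave 252 to 287 above and 437 to 465 below at 1 Mb, 843 to 1289 above and 2 to 92 below at 100 kb, and 0 to 2 strand windows. The first Mb of autosomes was at 1.17 without chromosome 11. Neighbours within 100 bp were 1.02% with a support of at least 10 and 1.40% after thinning. Agreement with the other livers, 0.910 at 1 Mb and 0.664 at 100 kb, was 0.839 and 0.511 after thinning, which lowers the counts. Support by strand reversed to -0.034 with the mean of log2. The minus excess was 0.69 points with a support of at least 10. No paired analysis was possible because the values come from a single group of livers.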
